A study of Mus musculus with 8 samples.

Results

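The genes described here are the cytochrome P450 genes of families 1, 2 and 3 outside the Cyp2a, Cyp2b and Cyp2g subfamilies, which metabolise drugs, pollutants and, for some members, fatty acids and steroids. They were taken by gene symbol: 60 symbols matched the family pattern, 10 of them belonged to the subfamilies left out, and no pseudogene was among the rest. This gave 50 protein-coding members of 54838 genes counted. RNA had been sequenced from 8 pieces of liver of male, wild-type C57BL/6J mice, 4 labelled tumour and 4 labelled non-tumour. All 8 carry the same treatment in their labels: the liver carcinogen diethylnitrosamine (DEN) injected intraperitoneally at day 15, and a diet named HFD + SW for 30 weeks, abbreviations that the labels do not expand. Another label counts the 30 weeks from the injection, which leaves the age at collection uncertain. The non-tumour pieces come from the same carcinogen and diet as the tumours and are not livers of untreated mice. The labels name whole liver tissue as the source of every library and do not say which pieces came from separate mice, so the p-values below measure only the spread between these pieces.

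Cytochrome P450 enzymes of these families sit in the membrane of the endoplasmic reticulum and carry a heme group at which oxygen is split. They take electrons from cytochrome P450 oxidoreductase and cytochrome b5 and insert an oxygen atom into a fat-soluble substrate, which makes it easier to conjugate and excrete but can also turn it into a reactive product. Hepatocytes hold most of them, and many are highest around the central vein. The ligand-activated receptors AhR, CAR and PXR raise the transcription of particular subfamilies, and the daily pattern of growth hormone makes some members male- or female-predominant in mouse liver.

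Totals ran from 15446690 to 21977052 counts per library, so that a count of 0 allows up to 0.137 to 0.194 counts-per-million (CPM), counting error only. Tumour 2 and tumour 4 were near-identical, as were non-tumour 2, 3 and 4: the chi-square of their gene counts was 1.58 to 3.28 per degree of freedom in these 4 pairs, close to the 1 that sampling noise gives, against 71.7 to 165 in the other 24 pairs. These sets were therefore counted once each, which left 3 tumour profiles (tumour 1, tumour 2 with 4, tumour 3) and 2 non-tumour profiles (non-tumour 1, non-tumour 2 with 3 and 4). Hepatocyte markers were abundant in every library; the 8 together summed to 124121 to 183835 CPM in the tumour libraries and 103367 to 121034 CPM in the non-tumour libraries. Non-tumour 1 stood apart from the other non-tumour libraries in other cell types: its 8 Kupffer cell markers summed to 629 CPM against 193 in each of the other 3 and 177 to 237 in the tumours, and its 8 endothelial markers to 356 CPM against 161 to 164 and 173 to 220. The 8 cholangiocyte markers summed to 404, 190, 22.8 and 198 CPM in tumour 1 to 4 and to 33.5 to 40.2 CPM in the non-tumours. Spp1 and Tspan8 made up most of the sum in tumour 1, at 204 and 189 CPM. Sox9 was at 4.08 CPM in tumour 1 and 4.13 in non-tumour 1. Epcam was at 0.32 CPM in tumour 1, 0.05 in non-tumour 1 and 0.44 to 0.68 in non-tumour 2, 3 and 4. Cftr was at 0.32 CPM in tumour 1, 0.05 in non-tumour 1, 0 in non-tumour 2 and 3 and 0.19 in non-tumour 4, and both rest on few reads. All 6 cholangiocyte markers tested had log2 fold changes above 0, with a median of 1.77, and 0 were called. In pieces of tissue, fewer cells of a type and less RNA per cell cannot be told apart.

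Before the values, the start regions of 6 Cyp3a members are shown, as summed Cyp3a transcript ran from 676 to 4823 CPM between libraries. Whether the start regions had a part in that range was not tested. Each line is the RefSeq window around the transcription start (GRCm38.p6, 300 bases, read 5′ to 3′ on the gene's own strand). Capitals mark CAAAGTCCA, a core recognised by the hepatocyte factor HNF4A, and AGGTCA or its reverse complement TGACCT, the half-site of nuclear receptors.
Cyp3a11 (chr5:145879805-145880104, minus strand): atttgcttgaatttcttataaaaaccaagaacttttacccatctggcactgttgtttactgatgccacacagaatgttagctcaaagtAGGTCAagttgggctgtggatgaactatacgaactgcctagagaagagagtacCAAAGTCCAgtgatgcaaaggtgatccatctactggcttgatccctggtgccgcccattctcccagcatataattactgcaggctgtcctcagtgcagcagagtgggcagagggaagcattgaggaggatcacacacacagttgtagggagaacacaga
Cyp3a16 (chr5:145469674-145469973, minus strand): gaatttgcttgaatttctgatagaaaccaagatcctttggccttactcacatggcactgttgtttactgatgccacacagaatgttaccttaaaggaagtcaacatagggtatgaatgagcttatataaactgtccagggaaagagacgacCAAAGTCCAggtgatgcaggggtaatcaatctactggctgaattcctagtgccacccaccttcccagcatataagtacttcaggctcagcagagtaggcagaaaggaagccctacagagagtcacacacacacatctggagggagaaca
Cyp3a41b (chr5:145584681-145584980, minus strand): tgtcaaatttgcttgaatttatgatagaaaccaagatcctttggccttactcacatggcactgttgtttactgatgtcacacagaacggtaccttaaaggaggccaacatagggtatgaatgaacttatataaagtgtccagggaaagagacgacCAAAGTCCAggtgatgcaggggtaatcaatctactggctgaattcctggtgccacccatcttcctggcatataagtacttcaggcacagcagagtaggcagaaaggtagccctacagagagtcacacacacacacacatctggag
Cyp3a44 (chr5:145805825-145806124, minus strand): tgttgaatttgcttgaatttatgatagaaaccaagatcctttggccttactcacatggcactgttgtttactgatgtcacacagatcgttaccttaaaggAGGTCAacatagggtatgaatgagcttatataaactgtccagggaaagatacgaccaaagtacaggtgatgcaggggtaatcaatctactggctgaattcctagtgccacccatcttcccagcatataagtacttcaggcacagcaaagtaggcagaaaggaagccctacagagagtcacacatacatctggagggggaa
Cyp3a25 (chr5:146009568-146009867, minus strand): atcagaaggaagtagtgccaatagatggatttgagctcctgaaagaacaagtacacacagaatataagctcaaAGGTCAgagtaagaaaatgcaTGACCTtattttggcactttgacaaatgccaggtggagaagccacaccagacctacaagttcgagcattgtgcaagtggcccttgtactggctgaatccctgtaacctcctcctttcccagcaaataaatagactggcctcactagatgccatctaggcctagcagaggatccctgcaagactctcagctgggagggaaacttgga
Cyp3a59 (chr5:146079008-146079307, plus strand): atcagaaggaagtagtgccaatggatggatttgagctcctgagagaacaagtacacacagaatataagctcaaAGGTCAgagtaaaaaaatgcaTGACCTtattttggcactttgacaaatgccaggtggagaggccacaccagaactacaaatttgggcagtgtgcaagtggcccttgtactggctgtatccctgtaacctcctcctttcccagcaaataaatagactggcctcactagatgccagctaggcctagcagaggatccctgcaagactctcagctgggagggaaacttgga

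These windows are of 2 kinds. Those of Cyp3a11, Cyp3a16, Cyp3a41a, Cyp3a41b and Cyp3a44 were 69.8% to 97.0% identical to each other, and those of Cyp3a25, Cyp3a57 and Cyp3a59 were 89.1% to 96.3% identical. Between the 2 kinds, identity was 49.3% to 54.5%, and the window of Cyp3a13 had 49.6% to 54.4% with any other Cyp3a window. The exact letters CAAAGTCCA, searched on both strands, were found in the windows of Cyp3a11 (109 bases before the start), Cyp3a16 (99 bases before) and both Cyp3a41 genes (95 bases before), and not in that of Cyp3a44. Over all 43 members with a window, 10 held these letters, against 0.475% of the 32851 windows of all genes; 6 of the 10 belong to Cyp2c genes (Cyp2c40, Cyp2c65, Cyp2c67, Cyp2c68, Cyp2c69 and Cyp2c70). AGGTCA was found in 12 of 43 members and 16.255% of all windows, and in both directions in Cyp3a25, Cyp3a57 and Cyp3a59. A match is a description of letters and says nothing of whether a factor was bound. The AhR core GCGTG was in 8 of 43 members, Cyp1a1 among them and Cyp1a2 not, against 32.386% of all windows. TATAAA was in 24 members, against 13.616%. A member was counted if any of its windows matched, while the shares are of single windows. Many members are related copies, as the Cyp3a windows above show, so their matches are not separate occurrences to set against these shares.

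The comparison asked whether transcript of these genes differed between tumour and non-tumour liver. No member passed the test. Cyp2f2, an enzyme of periportal hepatocytes, was lower in every tumour library than in every non-tumour library, at 603.5 ± 143 CPM (SD, n = 3 profiles) against 1037 ± 190.3 CPM (SD, n = 2 profiles). Cyp3a11, the main PXR-regulated P450, was at 3846 to 4037 CPM in non-tumour 2, 3 and 4 and at 416 to 1113 CPM in the tumours, but non-tumour 1 was among the tumours at 453 CPM. Cyp2e1, the most abundant member, had nearly the same mean in both groups and its extremes in 2 tumours. Of the 50 members, 6 had no read in any library (Cyp2c65, Cyp2c66, Cyp2j7, Cyp2j12, Cyp2t4 and Cyp2w1), 44 had at least 1, and 40 passed the filter on low counts and were tested. Of these 40, 0 were called by edgeR's quasi-likelihood test over the 5 profiles, beside 0 of all 13650 genes tested (0%), and the smallest adjusted p of a member was 0.995. At an unadjusted p under 0.05 stood 1 member, Cyp2f2, beside 3.3% of all genes. DESeq2 called 0 members, beside 0.0147% of all genes, with 4 at an unadjusted p under 0.05, beside 4.23%. Limma voom called 0, beside 0%, with 1 at an unadjusted p under 0.05, beside 3.01%. Taking the 8 libraries as separate replicates, edgeR called 0 members beside 0.435% of all genes, with 19 of 39 members at an unadjusted p under 0.05, beside 18%. With no filter on low counts, edgeR called 9 of 44 members over the 5 profiles, beside 1.74% of all genes. The standard error of Cyp3a11 was then 0.36, against 0.84 with the filter, at nearly the same fold change. Log2 fold changes of tumour over non-tumour were below 0 in 24 of 40 members, beside 47.8% of all genes, with a median of -0.17 beside 0.01. That direction rested on single profiles: the median was 0.28, with 12 of 41 members below 0, without non-tumour 2, 3 and 4, and 0.01, with 19 of 39 below 0, without tumour 1. A log2 fold change of 1 or more in either direction was found in 8 members, beside 5.27% of all genes. The tumour profiles all lay above the non-tumour profiles in 1 member (Cyp2j6), beside 9.7% of all genes, and all below in 1 (Cyp2f2), beside 8.64%, so neither count exceeded the share over all genes. Without non-tumour 1, the tumour profiles lay below in 20 of 41 members tested, beside 22% of all genes, and above in 2, beside 21.8%. Without tumour 3, they lay below in 15 of 40, beside 18.5%, and above in 3, beside 22.5%. Without tumour 1, they lay above in 6, beside 14.3%, and below in 2, beside 12.3%.

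**Figure D1:**
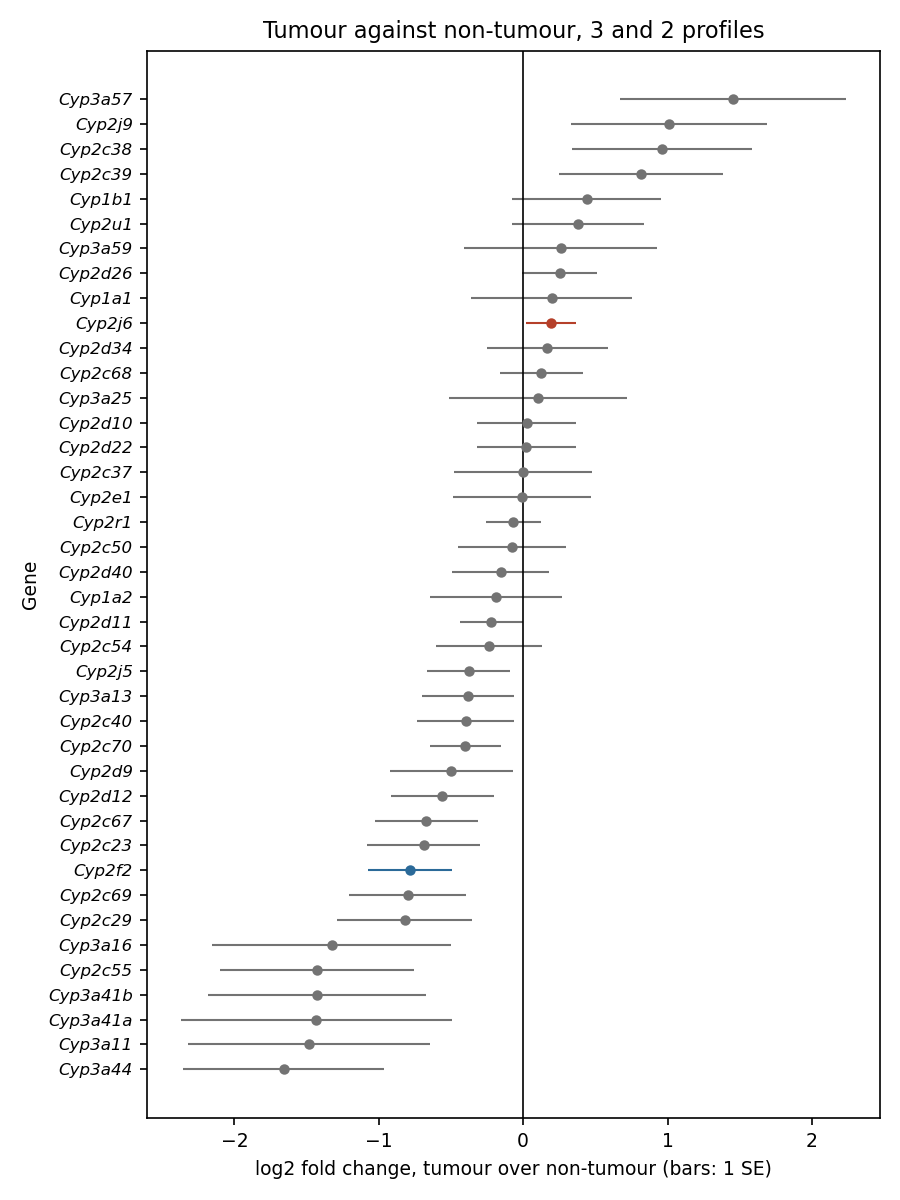
Log2 fold change of tumour over non-tumour for the 40 members tested, with bars of 1 standard error, from 3 tumour and 2 non-tumour profiles. Grey members overlap between the groups; Cyp2f2 (blue) is the member whose tumour profiles all lay below, and Cyp2j6 (red) the one whose tumour profiles all lay above; 5 Cyp3a genes and Cyp2c55 are at the low end, with wide bars.

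The members together took 0.916%, 1.58%, 1.86% and 1.55% of all counts in tumour 1 to 4. In non-tumour 1 they took 1.41%, and in each of the other non-tumour libraries 2.09% to 2.1%. Tumour 1 was thus the lowest library and the near-identical non-tumour set the highest, while non-tumour 1 lay below tumour 2, 3 and 4. Tumour 1 was the lowest of the 5 profiles in 25 of the 40 members tested, beside 20.1% of all genes, and non-tumour 2 with 3 and 4 was the lowest in none. That non-tumour set was the highest profile in 20 members, beside 17.3% of all genes, and tumour 3 in 16, beside 29.8%. Hepatocyte markers were not all at one end in tumour 1: albumin was the highest of the 8 libraries, at 138826 CPM against 73195 to 108014, Ttr the lowest, at 5960 CPM against 6251 to 11043, and Tat was at 480 CPM against 441 to 480 in the other tumours and non-tumour 1 and 1136 to 1141 in non-tumour 2, 3 and 4. Their part in the P450 levels was not tested.

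**Figure D2:**
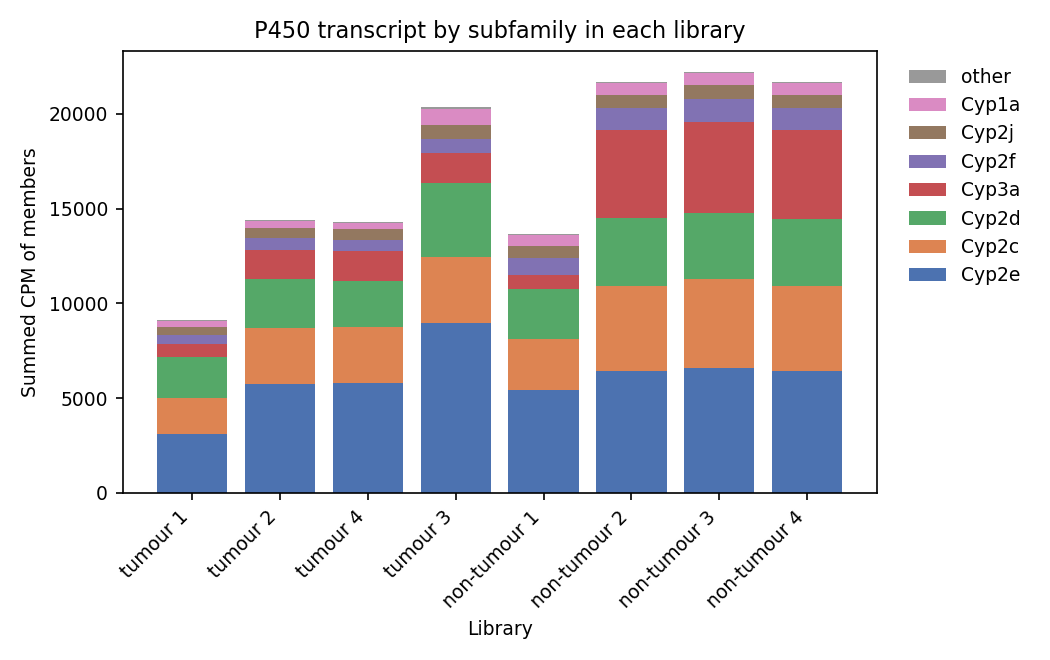
Summed CPM of the members in each of the 8 libraries, stacked by subfamily, with the near-identical tumour 2 and tumour 4 side by side. Tumour 1 is the lowest column at 9121 CPM and non-tumour 3 the highest at 22214 CPM; the Cyp3a segment is 746 CPM for non-tumour 1 but 4611 to 4823 CPM for the other non-tumour libraries.

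Cyp2e1, on chromosome 7 from 140763739 to 140774987, oxidises ethanol and other small molecules and is known to activate nitrosamines such as DEN. It was the highest member per length of exon, at 2758 RPKM, which is CPM per kilobase of exon, as a mean over the 5 profiles, followed by Cyp2d26 at 498, Cyp2f2 at 384 and Cyp2d9 at 379.6 RPKM. Its level was 3097, 5744, 8954 and 5794 CPM in tumour 1 to 4 and 5437, 6455, 6605 and 6436 CPM in non-tumour 1 to 4. The lowest and the highest library were both tumours, and the group means were nearly the same, 5940 ± 2932 CPM (SD, n = 3 profiles) and 5968 ± 751 CPM (SD, n = 2 profiles). The spread among tumours, 2.89-fold from lowest to highest profile, was far larger than the difference between the groups (log2 fold change -0.01, standard error 0.48).

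Cyp2f2, which activates naphthalene and marks periportal hepatocytes in mouse liver, lies on chromosome 7 from 27119909 to 27133660. It was at 455, 639, 739 and 593 CPM in tumour 1 to 4 and at 903, 1161, 1208 and 1146 CPM in non-tumour 1 to 4. Every tumour library was below every non-tumour library. The log2 fold change was -0.78 (standard error 0.29), with an unadjusted p of 0.034 and an adjusted p of 0.995 in edgeR's test over all genes. No stretch of 50 bases of its transcripts occurs in those of another gene.

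The Cyp1 enzymes act on flat aromatic molecules and are induced through AhR. Cyp1a2, the member of the subfamily that liver expresses without an inducer, was at 323, 358, 844 and 343 CPM in tumour 1 to 4 and at 541, 609, 621 and 593.5 CPM in non-tumour 1 to 4. The 3 lowest libraries and the highest were tumours, so the groups overlapped (log2 fold change -0.19, standard error 0.46), and without tumour 1 the fold change turned to 0.05. Its chromosome 9 neighbour Cyp1a1, the classical inducible member, was near the floor, with 9 to 21 reads in each library. Cyp1b1, found mainly outside hepatocytes, had 4 to 15 reads in each library, at 0.68, 0.59, 0.32 and 0.64 CPM in tumour 1 to 4 and 0.35, 0.23, 0.68 and 0.44 CPM in non-tumour 1 to 4. Its log2 fold change of 0.44 was smaller than its standard error of 0.52.

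The Cyp2c subfamily oxidises drugs and arachidonic acid; 14 of its 15 members form a cluster on chromosome 19 from 39007019 to 40187333, and Cyp2c23 lies apart at 44005022 to 44029208. Of the 13 members tested, 4 had a log2 fold change above 0 and 9 below, with a median of -0.40, and all 13 overlapped between the groups. Summed over the subfamily, transcript was 1895, 2955, 3477 and 2954 CPM in tumour 1 to 4 and 2680, 4466, 4669 and 4506 CPM in non-tumour 1 to 4.

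Cyp2c29, a CAR-inducible epoxygenase and the most abundant member of the subfamily, was at 299, 608, 638 and 601 CPM in tumour 1 to 4 and at 551, 1240, 1298 and 1249 CPM in non-tumour 1 to 4. Non-tumour 1 lay among the tumours, below 3 of the 4 (log2 fold change -0.82, standard error 0.47). Cyp2c23, an arachidonic acid epoxygenase, was at 139.7, 199, 279 and 189 CPM in the tumours and 225, 422, 442 and 435.5 CPM in the non-tumours, with non-tumour 1 below tumour 3. Cyp2c67 was at 213, 230.1, 353 and 234 CPM in the tumours and 296, 543, 569 and 534 CPM in the non-tumours. As with Cyp2c29, tumour 1 was the lowest library of both.

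Cyp2c70, which makes muricholic acids in mouse liver, was the steadiest of the abundant Cyp2c genes, at 316, 332, 299.7 and 339 CPM in tumour 1 to 4 and 335, 496, 508 and 497.5 CPM in non-tumour 1 to 4. Here tumour 3, not tumour 1, was the lowest, and non-tumour 1 lay between tumour 2 and tumour 4. Cyp2c68 was at 192, 183, 197 and 185 CPM in the tumours and 123, 226, 225 and 227 CPM in the non-tumours, so that non-tumour 1 was below and the other non-tumours above every tumour.

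Cyp2c37, Cyp2c50 and Cyp2c54 are neighbours that act on arachidonic acid. Cyp2c37 was at 162, 445.5, 446 and 438 CPM in tumour 1 to 4 and 267, 423, 449 and 420.5 CPM in non-tumour 1 to 4. Cyp2c50 was at 360.4, 624, 827 and 624 CPM in the tumours and 581, 671, 714 and 693 CPM in the non-tumours. Cyp2c54 was at 115, 189.8, 273 and 198 CPM in the tumours and 206, 244, 253 and 253 CPM in the non-tumours. In all 3, tumour 1 was the lowest library, the groups overlapped, and the group difference was under 1 standard error; the fold changes of Cyp2c50 and Cyp2c54 turned above 0 without tumour 1.

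The low-abundance Cyp2c members went different ways between libraries. Cyp2c38 was at 13.3, 63.1, 62.0 and 63.0 CPM in tumour 1 to 4 and at 21.3, 26.0, 25.7 and 26.0 CPM in non-tumour 1 to 4, and its neighbour Cyp2c39, a retinoic acid hydroxylase, at 0.77, 2.74, 2.21 and 2.61 CPM against 1.06, 0.94, 1.30 and 1.06 CPM. For both, tumour 2, 3 and 4 were above all non-tumours and tumour 1 was below all of them (log2 fold changes 0.96 and 0.81, standard errors 0.63 and 0.57). Cyp2c55, a CAR- and PXR-inducible member with little expression in untreated liver, was at 1.68, 3.04, 3.35 and 2.02 CPM in the tumours and 2.06, 10.1, 13.2 and 10.6 CPM in the non-tumours. The high level was that of non-tumour 2, 3 and 4, 5.47-fold above non-tumour 1 (log2 fold change of the groups -1.43, standard error 0.67). Cyp2c40 and Cyp2c69, female-predominant genes, had the same split between non-tumour libraries, by 2.26-fold and 2.55-fold; of their stretches of 50 bases 60.3% and 54.3% occur in another gene's transcripts too, so counting without multi-mapping reads leaves their levels uncertain, as it does for Cyp2c67 (52.8%) and Cyp2c68 (43.3%).

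The Cyp2d enzymes oxidise many basic drugs; their 8 genes lie together on chromosome 15 from 82370527 to 82794294. All 8 were tested, with 4 log2 fold changes above 0 and 4 below and a median of -0.07, and no member separated the groups. Cyp2d9, a male-predominant testosterone hydroxylase, was at 590, 686, 1339 and 659 CPM in tumour 1 to 4 and at 979.8, 1501, 1437 and 1449 CPM in non-tumour 1 to 4. Tumour 1, 2 and 4 were below every non-tumour library, and tumour 3 was above non-tumour 1 (log2 fold change -0.50, standard error 0.42). Cyp2d26 was at 805.5, 975, 1117 and 908 CPM in the tumours and 738, 867, 851 and 865 CPM in the non-tumours, and tumour 1 alone, below 3 of the non-tumours, kept the groups from separating. Cyp2d10 was at 470.3, 505, 855 and 478 CPM in the tumours and 515, 683, 677.5 and 659 CPM in the non-tumours. Cyp2d22 was at 150.3, 206, 305 and 189.8 CPM in the tumours and 179, 252, 245 and 250.1 CPM in the non-tumours. Both had their highest library in tumour 3 and their lowest in tumour 1, and their fold changes fell below 0 without tumour 3 (-0.31 and -0.30) or without non-tumour 1. Cyp2d40 was at 73.8, 77.2, 142 and 71.6 CPM in the tumours and 97.6, 125, 114 and 113 CPM in the non-tumours. Cyp2d11 was at 77.6, 90.1, 112 and 90.0 CPM in the tumours and 99.8, 114, 117 and 121.5 CPM in the non-tumours. Tumour 3 was thus the highest tumour in every Cyp2d gene named here. Cyp2d10 and Cyp2d11 share 35.8% and 37.2% of their stretches of 50 bases with other genes, mainly each other.

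The Cyp2j enzymes are arachidonic acid epoxygenases, with 8 genes on chromosome 4 from 96027534 to 96664154. Cyp2j5, the abundant hepatic member, was at 339, 446, 583 and 469.6 CPM in tumour 1 to 4 and 551, 632.5, 647 and 646 CPM in non-tumour 1 to 4, and tumour 3 lay above non-tumour 1 (log2 fold change -0.38, standard error 0.29). Cyp2j6 was at 85.1, 77.6, 92.5 and 84.0 CPM in the tumours and 70.3, 81.7, 81.5 and 77.8 CPM in the non-tumours. It separated the groups only with near-identical libraries joined, since tumour 2 alone was below 3 of the non-tumour libraries (log2 fold change 0.19, standard error 0.17). Cyp2j9 was at 7.52, 5.78, 25.8 and 5.22 CPM in the tumours and 5.29, 6.55, 7.94 and 7.63 CPM in the non-tumours, so its log2 fold change of 1.01 (standard error 0.68) came from tumour 3, without which it was 0.03. The other 5 had at most a few reads.

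Cyp2u1, a fatty acid hydroxylase, had the same single high library: 34.1, 34.1, 88.7 and 32.4 CPM in tumour 1 to 4 and 41.4, 36.1, 41.4 and 37.4 CPM in non-tumour 1 to 4. Without tumour 3 its log2 fold change went from 0.38 to -0.24. Cyp2r1, the hepatic hydroxylase of vitamin D, varied least of the lone members, at 15.1, 15.8, 17.0 and 16.0 CPM in the tumours and 14.1, 21.2, 17.5 and 18.9 CPM in the non-tumours (log2 fold change -0.07, standard error 0.19). Cyp2s1, an epithelial member that did not pass the filter, had 71 reads in tumour 1, which is 3.22 CPM, and 0 to 5 reads in each other library. Tumour 1 also had the highest sum of cholangiocyte markers, mostly Spp1 and Tspan8, while Krt19 and Krt7 were at 2.58 and 2.45 CPM there and at most 0.63 CPM elsewhere; the part of these cells in the Cyp2s1 reads was not tested.

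The 9 Cyp3a genes oxidise a wide range of drugs and steroids; Cyp3a13 lies on chromosome 5 at 137892932 to 137921619 and the other 8 from 145345279 to 146113287. All were tested: 6 log2 fold changes were below 0 and 3 above, the median was -1.33, and every member overlapped between the groups. Summed Cyp3a transcript was 676, 1550, 1600 and 1586 CPM in tumour 1 to 4 and 746, 4611, 4823 and 4691 CPM in non-tumour 1 to 4. Non-tumour 1 was thus as low as tumour 1, and the near-identical non-tumour set was alone at its level.

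Cyp3a11, the main PXR-regulated Cyp3a enzyme of mouse liver, was at 416, 1077, 845.5 and 1113 CPM in tumour 1 to 4 and at 453, 3846, 4037 and 3906 CPM in non-tumour 1 to 4. The non-tumour profiles differed 8.68-fold from each other, more than the tumour mean of 785.5 ± 343.5 CPM (SD, n = 3) differed from the non-tumour mean of 2191 ± 2459 CPM (SD, n = 2). The log2 fold change was -1.48 with a standard error of 0.84, and without non-tumour 2, 3 and 4 it was 0.79. The genes whose windows printed above are most like that of Cyp3a11 had the same split, and the part of the windows in it was not tested. Smaller splits in the same direction are given below for Cyp3a13, Cyp3a25 and Cyp3a59, and Cyp2c55, outside this subfamily, differed 5.47-fold. Cyp3a41b was at 7.20, 18.5, 16.1 and 16.0 CPM in the tumours and 8.92, 55.9, 72.1 and 63.1 CPM in the non-tumours. Cyp3a44 was at 5.48, 9.02, 5.31 and 9.16 CPM in the tumours and 5.54, 33.1, 39.5 and 36.5 CPM in the non-tumours. Both are known as female-predominant genes and were here low but counted in male livers. Cyp3a41a was at 0.59, 1.27, 1.26 and 1.38 CPM in the tumours and 0.35, 5.38, 5.20 and 5.13 CPM in the non-tumours. Cyp3a16, the fetal and neonatal form, ranged from 1.33 to 3.10 CPM in the tumours and was at 0.91, 8.25, 9.04 and 7.88 CPM in the non-tumours. For all 5 genes with this kind of window, non-tumour 2, 3 and 4 were above every other library, 6.56-fold to 14.9-fold over non-tumour 1. The 2 Cyp3a41 genes cannot be counted apart with certainty, since 98.6% and 93.5% of their stretches of 50 bases occur in another gene's transcripts, mainly each other's. For Cyp3a44 this share was 26.5% (mainly Cyp3a41a), for Cyp3a16 10.7% (mainly Cyp3a11) and for Cyp3a11 6.7% (mainly Cyp3a41a). With stretches of 100 bases these shares were 5.4%, 0.1% and 0.1%. How many reads of the low genes stem from the abundant Cyp3a11 was not tested, so their splits may not be independent of its own.

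The genes with the other kind of window were not alike. Cyp3a25 was at 162, 316, 596 and 326 CPM in tumour 1 to 4 and 188, 479, 473 and 486 CPM in non-tumour 1 to 4, and its highest library was tumour 3 (log2 fold change 0.10, standard error 0.61). Its near copy Cyp3a59 was at 8.79, 22.4, 29.0 and 19.5 CPM in the tumours and 6.45, 25.2, 24.0 and 28.1 CPM in the non-tumours, again with tumour 3 highest and tumour 1 and non-tumour 1 lowest. The non-tumour profiles differed 2.54-fold in Cyp3a25 and 4.00-fold in Cyp3a59. Cyp3a57 was barely counted, at 0.72, 0.69, 0.13 and 0.79 CPM in the tumours and 0.15, 0.12, 0.14 and 0.44 CPM in the non-tumours. Its log2 fold change of 1.46 (standard error 0.78) is the largest above 0 among the members and rests on few reads, with tumour 3 at the non-tumour level. Cyp3a13, an intestinal and hepatic form, was at 74.2, 102.5, 105 and 96.3 CPM in the tumours and 82.6, 158, 162 and 158 CPM in the non-tumours, and had the same split between non-tumour libraries, by 1.93-fold.

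**Figure D3:**
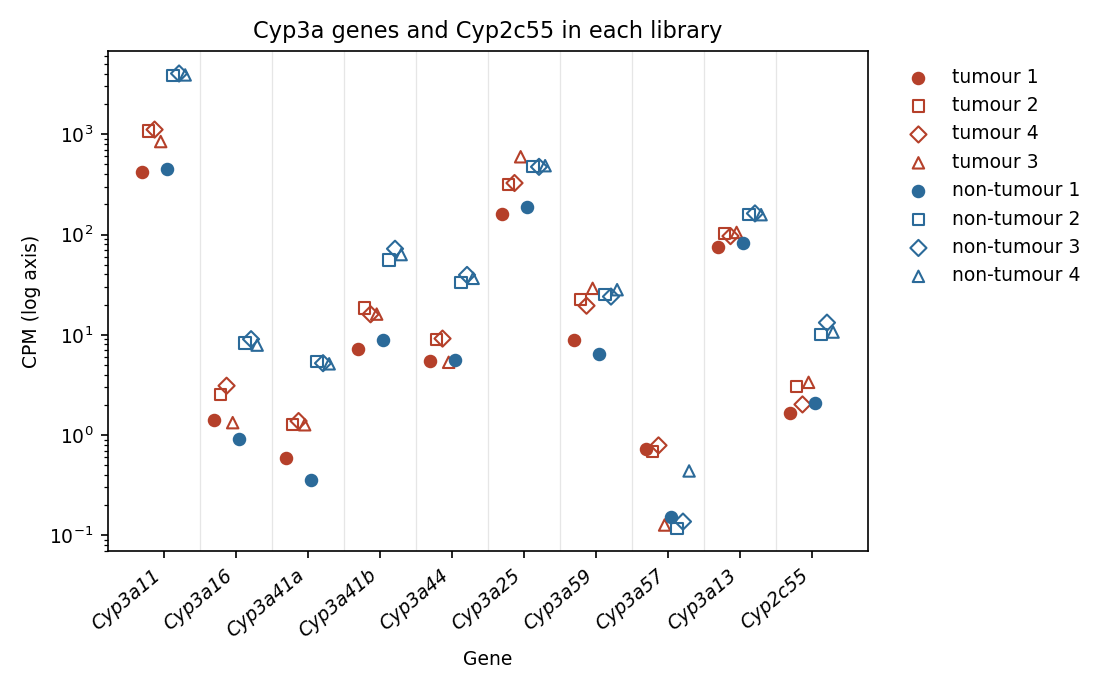
CPM on a log axis of the 9 Cyp3a genes and Cyp2c55 in each library, tumour in red and non-tumour in blue, with a symbol for each replicate. In Cyp3a11, Cyp3a16, Cyp3a41a, Cyp3a41b, Cyp3a44 and Cyp2c55 the non-tumour 2, 3 and 4 symbols lie above all others and non-tumour 1 lies with the tumours or below them; in Cyp3a25 and Cyp3a59 tumour 3 is the highest symbol.

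The difference between the 2 non-tumour profiles ran through most of the members. Non-tumour 2 with 3 and 4 was above non-tumour 1 in 39 of 40 members tested, beside 51.3% of all genes, with a median ratio of 1.39 beside 1.01. The ratio was over 1.5 in 17 members, beside 9.22% of all genes, over 2 in 11, beside 2.94%, and over 5 in 6, beside 0.352%; these 6 are Cyp2c55, Cyp3a11, Cyp3a16, Cyp3a41a, Cyp3a41b and Cyp3a44. Cyp2u1 was the member below 1, at 0.93. At the other end of the ratios stood abundant genes such as Cyp1a2 (1.12), Cyp2j5 (1.165) and Cyp2e1 (1.195), which differed little between the non-tumour profiles. These profiles are 2 pieces of 1 group, so the ratios are descriptions with no test. The Kupffer cell and endothelial markers that were high in non-tumour 1 are given above, and their part in these ratios was not tested. Hepatocyte markers summed to 103367 CPM there, against 116224 to 121034 CPM in non-tumour 2, 3 and 4, with albumin as most of each sum. Tat was at 480 CPM in non-tumour 1 against 1136 to 1141 CPM in non-tumour 2, 3 and 4, and Trf at 792 against 1223 to 1263 CPM. Of the hepatocyte markers, Apob alone was higher in non-tumour 1, at 4657 against 4296 to 4546 CPM. The part of hepatocyte content in the ratios was not tested either.

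**Figure D4:**
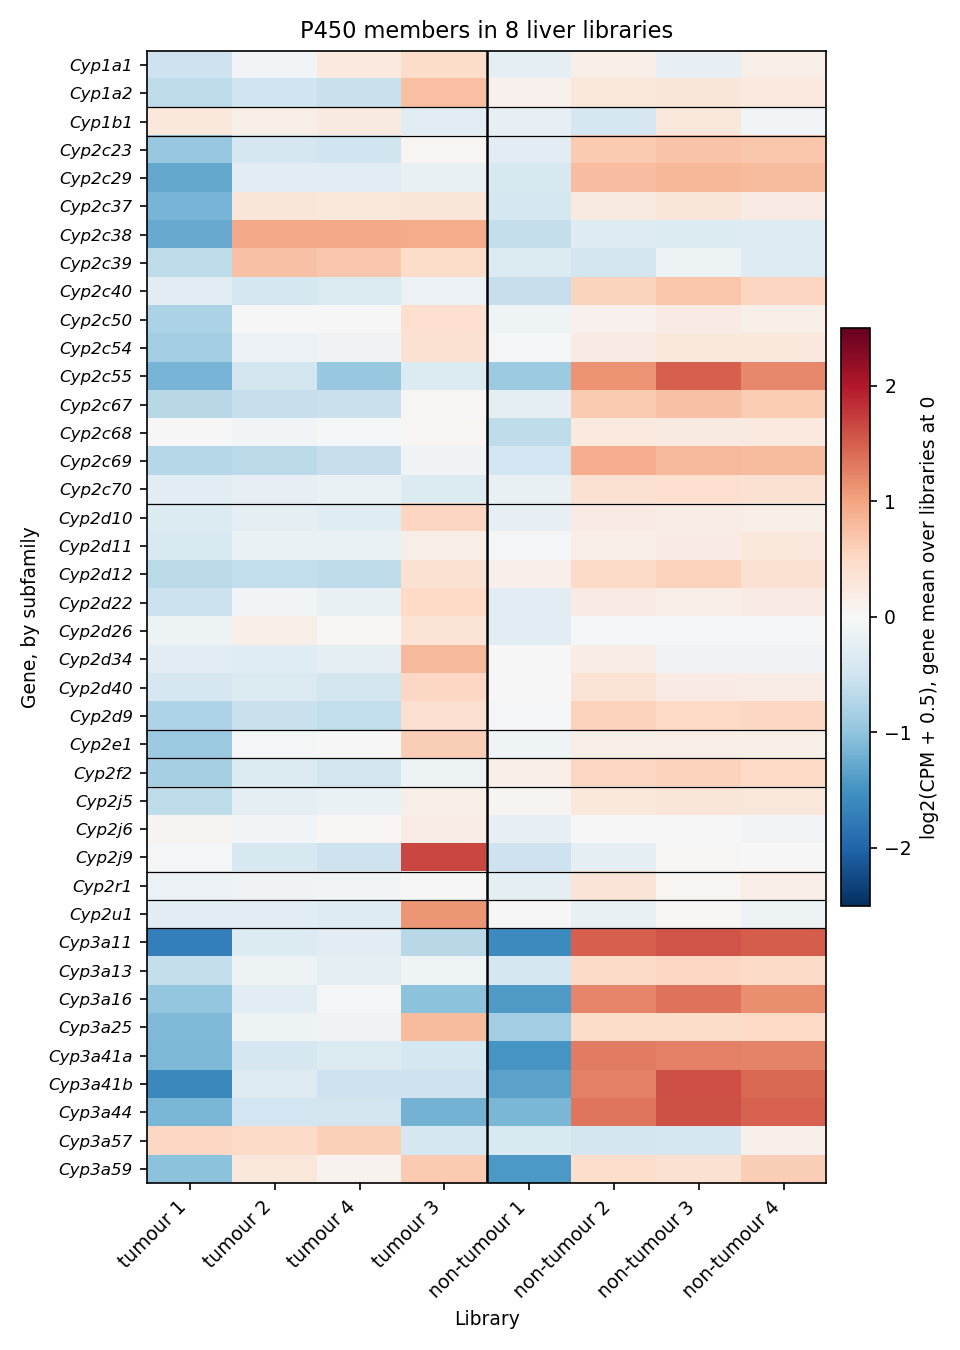
Log2(CPM + 0.5) of the 40 members tested in the 8 libraries, each gene centred on its mean over libraries, ordered by subfamily. Tumour 1 is blue in most rows (the lowest profile in 25 of 40), non-tumour 2, 3 and 4 are red in most, and the darkest blocks are the Cyp3a rows; Cyp2j9 and Cyp2u1 are red in tumour 3 alone.

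Known groupings of the members cut across the subfamilies, and none of their members was called, with 0 of every list past the threshold in edgeR's test. Of 8 pericentral members (Cyp1a2, Cyp2e1, Cyp2c29, Cyp2c37, Cyp2c50, Cyp2c54, Cyp3a11 and Cyp3a25), 2 had log2 fold changes above 0 and 6 below, with a median of -0.13 beside 0.01 over all genes. Of 13 other pericentral genes, 6 were above 0 and 7 below, with a median of -0.06. Their sum was 3053, 4630, 6529 and 4704 CPM in tumour 1 to 4 and 4462 to 4752 CPM in the non-tumours, so tumour 1 was lowest and tumour 3 highest, the order that Cyp2e1, Cyp1a2 and Cyp3a25 had among the tumours. Of 14 periportal genes other than Cyp2f2, 3 were above 0 and 11 below, with a median of -0.41. The tumour profiles all lay below the non-tumour profiles in 4, Ass1 among them, beside 8.64% of all genes. They all lay above in 1 (Hsd17b13), beside 9.7%. The 14 genes summed to 8333, 8581, 7222 and 8505 CPM in tumour 1 to 4. In non-tumour 1 to 4 they summed to 7531, 10039, 10012 and 9956 CPM, so non-tumour 1 lay among the tumours. Within these sums Apoa4 was at 1959 to 3449 CPM in the tumours, 2083 in non-tumour 1 and 425 to 434 in non-tumour 2, 3 and 4. Of the 8 female-predominant members, 2 were above 0 (Cyp2c38 and Cyp2c39) and 6 below, with a median of -1.06. Their sum was 109.8, 171, 183 and 173 CPM in the tumours and 109, 294, 324 and 298 CPM in the non-tumours. Of the 5 members known to be induced through CAR or PXR, 1 was above 0 and 4 below, with a median of -0.82. Their sum was 1239, 2758, 2761 and 2778 CPM in tumour 1 to 4. In non-tumour 1 to 4 it was 1854, 6190, 6511 and 6280 CPM, so non-tumour 1 lay among the tumours. Cyp2c29, Cyp2c37, Cyp2c50 and Cyp3a11 are in this list and among the pericentral members. Of the 3 induced through AhR, 2 were above and 1 below, with a median of 0.20.

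Genes that serve the P450 system were compared by lists of known pathway genes. Of 7 electron transfer partners, 3 were above 0 and 4 below, with a median of -0.08, and 0 had an unadjusted p under 0.05. Por, the oxidoreductase that feeds all microsomal P450 enzymes, had 1 low and 1 high non-tumour profile, and tumour 3 was near the high one: its level was 57.3, 70.0, 128 and 67.4 CPM in tumour 1 to 4 and 52.3, 139.8, 136.5 and 139 CPM in non-tumour 1 to 4. Cyb5b, a cytochrome b5 of the outer mitochondrial membrane, had all tumour profiles below the non-tumour profiles (log2 fold change -0.44, standard error 0.22). Of 12 genes of heme synthesis and breakdown, 4 were above 0 and 8 below, with a median of -0.11, and Alas1, the rate-limiting enzyme, was at 82.3 CPM in tumour 1, 172 to 182 CPM in the other tumours and 102 to 122 CPM in the non-tumours. Alas1 had the same order as Cyp2c38, with tumour 1 below and the other tumours above every non-tumour library.

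Of 16 receptors and regulators tested, 5 were above 0 and 11 below, with a median of -0.10, and 0 had an unadjusted p under 0.05. The tumour profiles all lay below the non-tumour profiles in 4, beside 8.64% of all genes, and all above in 1, beside 9.7%. Nr1i2, which encodes PXR, was at 34.3, 40.5, 65.9 and 41.8 CPM in the tumours and 37.7, 61.7, 55.5 and 58.0 CPM in the non-tumours, and so had its highest library in tumour 3, where Cyp3a11 was at 845.5 CPM. Nr1i3, which encodes CAR, was at 53.7, 100.3, 243 and 102 CPM in the tumours and 64.8, 90.9, 91.5 and 90.7 CPM in the non-tumours, with tumour 3 alone at the high level. Rxra, the partner of both receptors, was among the 4 (log2 fold change -0.50, standard error 0.25), and Nfe2l2, the regulator of the oxidative stress response, was the 1 above (log2 fold change 0.38, standard error 0.19). Hnf4a was at 327 to 464 CPM in the tumours and 446 to 497.5 CPM in the non-tumours, which overlapped. Of 6 epoxide hydrolases and flavin monooxygenases tested, 4 were above 0 and 2 below, with a median of 0.08. Ephx1, which opens the epoxides that P450 enzymes form, was at 182, 273, 332 and 257 CPM in the tumours and 222, 519, 519 and 500.0 CPM in the non-tumours, the split seen for Cyp2c29. Fmo2 and Fmo4, flavin enzymes that oxidise nitrogen and sulfur without a P450, were the lowest in p of this list, with log2 fold changes of 1.90 (standard error 0.59) and 0.96 (standard error 0.38) and unadjusted p-values of 0.0168 and 0.0431 in edgeR's test, neither of which held after adjustment (0.995).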

How the data were processed

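Per the labels' protocols, snap-frozen tissue was lysed in Trizol, purified on a column and made into Illumina mRNA libraries. Per the file headers, the deposited values are raw read counts per gene, made by the authors with featureCounts 1.6.2 over exons of Ensembl release 95 (GRCm38) at strand setting 2; options for multi-mapping reads are not named there, and by default such reads are not counted. The submitters' processing notes name STAR 2.5.0. Symbols came from a reference table that matched 54723 of 54838 gene IDs.

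Members and gene lists were chosen with earlier results of these data known. Counts of near-identical libraries (chi-square per degree of freedom under 10, over genes with at least 20 reads in the pair) were summed into 5 profiles and tested with edgeR 4.0.16 in R 4.3.3 (robust glmQLFit, glmQLFTest, TMM scaling, filterByExpr with minimum count 10 and minimum total 15, Benjamini-Hochberg adjustment over all genes, threshold 0.05). Standard errors are the log2 fold change over the root of F. CPM use TMM-scaled library sizes; a profile's CPM is the mean of its libraries. RPKM divide CPM by the union exon length of GENCODE vM21, which was also used for shared stretches.

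Named by rule were members with a mean of at least 100 CPM, the 5 largest fold changes in each direction, the top tested member of each subfamily, any member called, and up to 2 genes of each other list by p. Cyp1a1, Cyp2c40, Cyp2c69, Cyp2d11, Cyp2j6, Cyp2s1, Cyp3a16, Cyp3a59, Por, Alas1, Nr1i2, Nr1i3, Hnf4a, Ephx1, Alb, Ttr, Apob, Apoa4, Sox9, Epcam, Krt19, Cftr and Tspan8, and the members without reads, were chosen after their values were seen. The remaining members and list genes are given as counts and medians. Promoter windows come from RefSeq (GRCm38.p6), which held one for 43 of 50 members, and identities from global alignment. On data drawn from these libraries' means with 200 genes changed (3 runs, 13596 to 13691 genes, dispersion 0.0824), the 5-profile test recovered 16.3% of changes of 1 and 93.3% of changes of 2 on the log2 scale, with 5.89% of calls false. Every gene was drawn with that same dispersion. The recovery therefore does not hold for members with a wider spread, such as Cyp3a11 (standard error 0.84). DESeq2 1.42.0 and limma 3.58.1 (voom) were alternatives, with other scalings and filters, 8 separate libraries, a replicate block and leaving out libraries.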

Additional observations from a re-analysis of the deposited data

How the results depend on the processing

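The count of members called stayed 0 except with no expression filter (9 of 44). The log2 fold changes of 31 named members over 21 alternatives kept their sign in all but 47 of 644 cases. Of these members, 13 never changed sign. Many alternatives kept every profile: they left out a library whose near-identical partner stayed, or changed only scaling, filter or tool. Kept signs there were largely built in and say little of stability. Without non-tumour 2, 3 and 4, Cyp3a11 went from -1.48 to 0.79. With no filter, edgeR called 427 genes and the 9 members Cyp2c38, Cyp2c55, Cyp2c69, Cyp2j9, Cyp2s1, Cyp3a11, Cyp3a16, Cyp3a41b and Cyp3a44, with log2 fold changes of -1.69 to 0.96 apart from Cyp2s1 at 4.34. For Cyp3a11, Cyp3a41b and Cyp3a44 the fold changes moved little from the reported fit. Their standard errors fell from 0.84, 0.76 and 0.70 to 0.36, 0.23 and 0.26, though the gap between the non-tumour profiles was the same. The cause was not tested. DESeq2 called 2 genes, 8 separate libraries 56, and leaving out each library or near-identical set from 0 to 5, the 5 without tumour 3. With 3 tumour and 2 non-tumour profiles, changes of 1 on the log2 scale are mostly beyond what the test can call, and members under about 1 CPM rest on few reads. Where 1 profile of a group was left, its spread was assumed to be that of the other group.

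The members that separated the groups upward were 1 in the reported analysis, beside 9.7% of all genes. They were 0 with DESeq2 size factors, beside 1212 of 13650 genes. With 8 libraries or with the replicate block they were also 0, beside 685 of 12880 genes in both. When libraries or sets were left out they were 0 to 10, the 10 without non-tumour 2, 3 and 4 (beside 24.1% of all genes). Those that separated downward were 1 as reported, beside 8.64% of all genes. They were 2 with DESeq2 size factors (beside 1316 of 13650 genes), upper-quartile scaling (1098 of 13650) or the 10 most abundant genes left out (1182 of 13503). By library size alone they were 3, beside 816 of 13650 genes. When libraries were left out they were 1 to 20, the 20 without non-tumour 1 (beside 22% of all genes).

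With all libraries kept, signs changed for 6 members, each with a reported log2 fold change of 0.13 or less in size. Cyp2c37 went to -0.008 with DESeq2 size factors and with DESeq2, -0.036 with no filter, -0.068 with limma voom and -0.058 with 8 libraries, and Cyp2e1 to 0.01 with upper-quartile scaling. Cyp2d10 and Cyp2d22 went to -0.018 and -0.019 with no filter and to -0.127 and -0.114 with 8 libraries, where Cyp2c68 was -0.073 and Cyp3a25 -0.209. With libraries left out, the ranges that crossed 0 were -0.774 to 0.054 for Cyp1a2, -0.309 to 0.387 for Cyp2c37, -0.374 to 0.187 for Cyp2c50, -0.565 to 0.034 for Cyp2c54, -2.172 to 0.278 for Cyp2c55, -0.252 to 0.629 for Cyp2c68, -0.307 to 0.231 for Cyp2d10, -0.3 to 0.283 for Cyp2d22, -0.54 to 0.006 for Cyp2d40, -0.433 to 0.301 for Cyp2e1, -0.282 to 0.179 for Cyp2r1 and -0.241 to 0.617 for Cyp2u1. For the Cyp3a genes they were -2.331 to 0.792 for Cyp3a11, -0.789 to 0.167 for Cyp3a13, -0.471 to 0.93 for Cyp3a25, -2.307 to 1.576 for Cyp3a41a, -2.237 to 0.598 for Cyp3a41b and -2.447 to 0.263 for Cyp3a44, each lowest without non-tumour 1, except Cyp3a25, lowest without tumour 3, and each highest without non-tumour 2, 3 and 4.

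Whether same-numbered libraries are pairs could not be decided. The correlations of their deviations from the group means were 0.35, -0.147, 0.286 and -0.124. Near-identical libraries of a group have nearly the same deviations, so these values are not separate and cannot tell pairs from unpaired libraries. A fit of 8 libraries with the replicate block called 0 genes and 0 members, against 56 genes without the block, and gave log2 fold changes of -0.141 for Cyp2c37, -0.033 for Cyp2c68, -0.167 for Cyp2d10, -0.149 for Cyp2d22 and -0.26 for Cyp3a25.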
